A study of Mus musculus with 18 samples.

Results

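The early switch to interleukin-3 (IL-3) was followed in a mouse cell line that carries the P248L form of the IL-3 receptor, by comparing its 3 libraries of day 2 in IL-3 with its 3 untreated libraries. These 6 libraries are 6 of the 18 in the series, and each was assigned to its group by its label. FDH cells are immortalised fetal liver cells of BALB/c mice at E14.5 (a day of embryonic development), used at passages 10 to 12. The mice lacked βc and βIL-3, the signalling chains of the IL-3 receptor, and the cells were transduced with βc and with IL3Rα P248L. The untreated cells grew in medium with doxycycline and mouse stem cell factor (SCF) at 100 ng/ml. The day 2 cells were washed and kept for 2 days in IL-3 at 100 ng/ml, in a medium for which neither doxycycline nor SCF is listed, so the groups differ in IL-3, SCF and doxycycline at once. The wild-type line, with the same background, βc and media but an unaltered IL3Rα, gave 3 untreated and 3 day 2 libraries for comparison. Each receptor is represented by 1 line, so receptor and line cannot be told apart. Whether the replicates grew as separate cultures is not stated, and p-values therefore cover only the spread between these libraries, which may be technical.

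IL-3 binds IL3Rα, and the complex with the shared chain βc brings together the kinases Jak2 that are held by the receptor chains. The kinases phosphorylate STAT5, a transcription factor that switches on feedback inhibitors such as Cish and survival kinases such as Pim1, and they also start the MAPK and PI3K pathways. In myeloid progenitors IL-3 drives survival, division and development towards granulocytes, macrophages, mast cells and basophils. SCF acts through another receptor, the kinase Kit.

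Promoters of the 2 STAT5-responsive genes with the smallest adjusted p are shown, since STAT5 is known to bind TTCNNNGAA (N is any base; the motif reads the same on both strands). The sequences are from RefSeq on GRCm38.p6, in lower case with matches to the motif in capitals. The first runs from 250 bases before to 30 bases after the start of Cish (chr9:107296409-107296688, plus strand), and its 2 matches begin at bases 1 and 12 of the transcript. The other covers the 250 bases before the start of Pim1 (chr17:29490535-29490784, plus strand), where these letters do not occur.
Cish: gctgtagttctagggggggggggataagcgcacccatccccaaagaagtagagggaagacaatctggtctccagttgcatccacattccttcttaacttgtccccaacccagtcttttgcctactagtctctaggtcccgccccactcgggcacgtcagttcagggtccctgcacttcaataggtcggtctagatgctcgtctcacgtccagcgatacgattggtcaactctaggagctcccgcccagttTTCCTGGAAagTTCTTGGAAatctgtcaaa
Pim1: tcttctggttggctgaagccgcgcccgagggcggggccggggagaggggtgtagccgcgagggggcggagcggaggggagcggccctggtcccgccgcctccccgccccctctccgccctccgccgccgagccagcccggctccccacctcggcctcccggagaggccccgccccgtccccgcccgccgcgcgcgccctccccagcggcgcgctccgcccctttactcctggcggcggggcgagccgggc
In windows of 300 bases (250 before to 50 after the start), the motif occurred in 10.48% of the 477 genes that rose at day 2 and had a promoter in RefSeq, in 8.604% of 709 that fell and in 8.312% of 6509 that did not pass. It occurred in 9.554% of all 27025 genes with a promoter in RefSeq. In the STAT5-responsive list it occurred in 3 of 12 (exact 95% binomial interval 5.486 to 57.19%). A gene counted if any of its promoters held the motif. The exact 95% binomial intervals of the genes that rose (7.881 to 13.59%) and of those that did not pass (7.652 to 9.009%) overlapped, so the shares could not be told apart.

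The libraries came first, since replicates of these 2 groups spread more than others. Reads in genes numbered 13844612 to 27181962 per library. The biological coefficient of variation was 0.273 in the P248L untreated group and 0.236 at day 2, against 0.0855 to 0.115 in the other 4 groups. On the first principal component, which held 79.7% of the variance over 1000 genes chosen for high variance, the untreated libraries lay at -42.2, -34.0 and -31.1 and the day 2 libraries at 29.6, 35.3 and 42.5. On the second component (13.4%) untreated library 1 lay at 25.1, against -21.3 to 11.2 for the other 5. Deviations of a library from its group mean ran with the GC content of transcripts across genes, with r of 0.348, -0.072 and -0.411 in untreated libraries 1, 2 and 3 and 0.769, 0.132 and -0.738 in day 2 libraries 1, 2 and 3. Genes of 1 library are not independent replicates, so these values describe the libraries. Rn45s, the ribosomal RNA precursor, was at 37741 CPM in day 2 library 3 and at 766 to 3199 CPM in the other 17 libraries. Levels are in CPM, the usual depth-scaled count of a gene, with TMM factors. Untreated library 1 and day 2 library 3 are called the 2 libraries that stand apart below. Leaving them out keeps untreated libraries 2 and 3 (r of -0.072 and -0.411). Day 2 libraries 1 and 2 (0.769 and 0.132) remain against them. Deviations linked to GC content then run with the treatment, and only the libraries numbered 2 still share a number. Values without these 2 libraries are thus no check against such deviations.

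**Figure D1:**
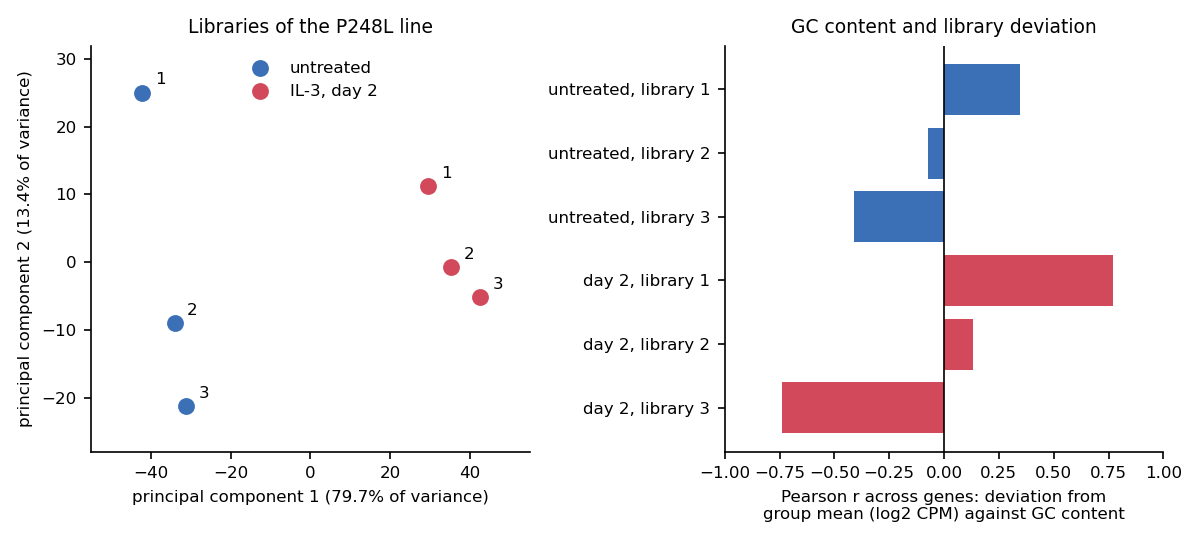
Left, the 6 P248L libraries on the first 2 principal components of log2 CPM (share of variance on each axis; numbers are replicates; blue untreated, red day 2). Right, the correlation across genes between each library's deviation from its group mean and transcript GC content; libraries 1 and 3 of each group lie on opposite sides of 0 and library 2 is nearest to 0.

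Of 10660 genes tested, 634 rose (5.95%) and 1023 fell (9.6%) at an adjusted p under 0.05. Among them 373 rose and 847 fell by at least 2-fold, and 163 and 275 by at least 4-fold. The median log2 fold change of all tested genes was -0.03, where 1 on this scale is 2-fold. All 1657 changed genes had no overlap between the 3 untreated and the 3 day 2 libraries, as had 37.5% of all tested genes. Same-numbered libraries deviated together, and with the replicate number as a block 1541 genes rose and 1938 fell (18.2%, and 32.6% in either direction), which included 1648 of the 1657 with the same sign. Without the 2 libraries that stand apart 1069 genes rose (9.96%) and 1474 fell (13.7%), and with each library's trend on length and GC content removed it was 1271 and 1499. The count was 696 without untreated library 2 and 708 without day 2 library 2, the libraries in the middle of their groups, and 1159 to 1707 without any other library. With no scaling beyond library size 422 genes rose and 1094 fell and the median was -0.14, and with upper-quartile factors it was 490 and 1235 and -0.15, so directions are given relative to the TMM scale.

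The genes that rose most were low or without reads in untreated cells, and they include inflammatory and myeloid genes. Serpinb9g, a serine protease inhibitor, had 0.0751, 0.0328 and 0 CPM in untreated libraries 1, 2 and 3 and 5.29, 9.30 and 23.8 CPM at day 2, a read-based ratio of 271 (95% counting interval 92.2 to 1316). Vat1l had 0 reads in every untreated library and 10.2, 9.36 and 12.6 CPM at day 2, so it was at least 256-fold higher against a floor of 3 counts over the group. No untreated value of either gene came near a day 2 value.

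C3, the central component of complement, went from 2.06, 4.33 and 4.36 CPM to 101, 109 and 81.1 CPM, a log2 fold change of 4.77 ± 0.34 (SE; adjusted p = 0.00015). C3ar1, the receptor of its fragment C3a, went from 0.150, 0.229 and 0.576 to 14.0, 14.6 and 20.7 CPM (5.80 ± 0.45, adjusted p = 0.000166). Both genes were picked with no overlap between the groups as a condition. Pilra, an inhibitory receptor of myeloid cells, rose from 0.338, 0.459 and 0.192 to 19.3, 18.2 and 21.2 CPM (5.79 ± 0.33, adjusted p = 0.000103). Slfn2, a Schlafen family gene, rose from 3.23, 3.34 and 2.37 to 73.2, 76.5 and 106 CPM (4.82 ± 0.27, adjusted p = 0.000103). Hsd11b1, which makes active glucocorticoid from its inactive form, rose from 3.003, 2.72 and 1.79 to 52.1, 59.5 and 60.0 CPM (4.49 ± 0.27). For these 5 genes each day 2 group was tight, with its highest library less than 2-fold above its lowest. The chemokine gene Ccl6, the cytoskeletal gene Enah and Emilin2, of the extracellular matrix, rose by 4.05, 4.65 and 4.03. All of the 12 largest rises kept the call under every alternative tried, other than stricter thresholds, with an adjusted p of 0.0104 at most.

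**Figure D2:**
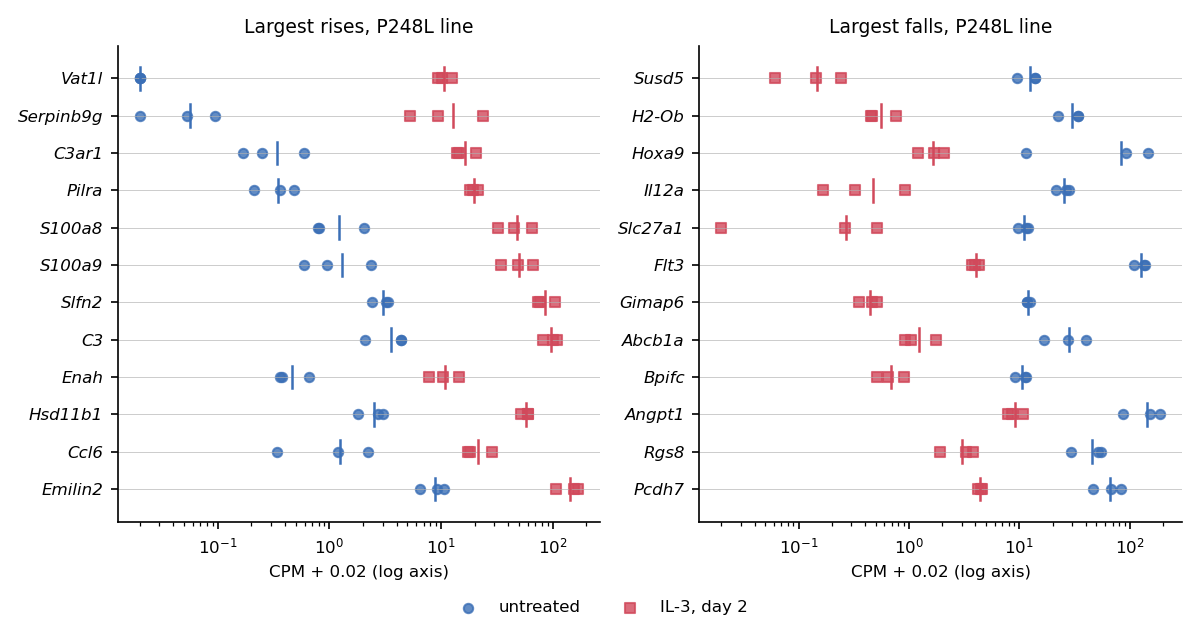
CPM plus 0.02 in each library (log axis) for the 12 largest rises and the 12 largest falls in the P248L line; blue circles are untreated, red squares day 2, and lines are means of 3. No overlap of the groups was a condition for picking these 24 genes, and untreated library 1 lies apart for Hoxa9.

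Genes of early progenitors were among the largest falls. Flt3, the receptor kinase of early and lymphoid-primed progenitors (chr5:147330741-147400489), had 108, 137 and 135 CPM untreated and 3.72, 4.31 and 3.97 CPM at day 2, a log2 fold change of -4.99 ± 0.22 (adjusted p = 6.29e-05). Its untreated and day 2 libraries lay far apart, with little spread in either group. Hoxa9, a homeobox factor of progenitors, had 11.5, 93.2 and 147 CPM untreated and 2.07, 1.66 and 1.18 CPM at day 2 (-5.65 ± 0.87, adjusted p = 0.00352). Untreated library 1 was lower in Hoxa9 than libraries 2 and 3 by a wide margin yet above every day 2 library. With the block the log2 fold change was -5.00, and without untreated library 1 and day 2 library 3 the adjusted p was 1.07e-05. Angpt1, the ligand of the receptor Tie2, fell from 86.4, 153 and 188 to 7.86, 8.50 and 10.8 CPM (-3.98 ± 0.33, adjusted p = 0.000223). Susd5 fell from 9.46, 13.9 and 14.0 to 0.0413, 0.123 and 0.221 CPM (-6.70 ± 0.47, or -7.44 without the 2 libraries that stand apart), and H2-Ob, a class II-related chain, from 22.3, 34.3 and 34.3 to 0.744, 0.431 and 0.441 CPM (-5.75 ± 0.35). Il12a, a cytokine subunit, Slc27a1, a fatty acid transporter, Gimap6, a GTPase of lymphoid cells, Abcb1a, a drug efflux pump, Rgs8, Bpifc and Pcdh7 had log2 fold changes of -5.64 to -3.89. All of the 12 largest falls kept the call under the same alternatives, with an adjusted p of 0.0339 at most.

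The genes of the receptor itself changed by less. The mouse Il3ra gene (chr14:14345912-14355493) had 8.93, 6.23 and 3.59 CPM untreated and 2.11, 1.48 and 0.441 CPM at day 2, a log2 fold change of -2.17 ± 0.52 (adjusted p = 0.025). It fell from a low level, with the groups apart, and the log2 fold change was -1.46 without the 2 libraries that stand apart and -1.44 after removal of the length and GC trend. The labels do not give the species or sequence of the transduced IL3Rα, so these reads cannot be tied to the P248L receptor. Csf2rb, which encodes βc (chr15:78325800-78351001), had 60.4, 67.7 and 64.2 and then 92.1, 74.0 and 62.7 CPM (0.25 ± 0.20, adjusted p = 0.42). Csf2rb2, which encodes βIL-3 (chr15:78282507-78305721), had 94.7, 98.0 and 89.0 and then 105, 105 and 96.5 CPM (0.12 ± 0.17, adjusted p = 0.646). Both overlapped between the groups and did not pass. Reads were thus counted at both genes although the mice lacked both chains and only βc was returned, the labels do not say which part is deleted, and the 2 genes are near-identical copies whose reads cannot be assigned with certainty. Of the 10 receptor, kinase and STAT5 genes listed, 2 rose and 3 fell, against 5.95% and 9.6% of all genes, with a median of -0.09. Csf2ra, the GM-CSF-binding chain, rose by 1.23 ± 0.25 (adjusted p = 0.0136) and Jak2 by 1.54 ± 0.32 (adjusted p = 0.0145), while Il5ra fell (-1.197 ± 0.32, adjusted p = 0.0368), as did Stat5b (-0.59 ± 0.17, adjusted p = 0.0476). Il3ra lost the call without untreated library 2, day 2 library 2 or day 2 library 3 (adjusted p 0.0533 to 0.0812). Csf2ra lost the call without untreated library 2 or day 2 library 2 (adjusted p 0.0543 to 0.0917). Jak2 lost the call without day 2 library 3 (adjusted p 0.0515). Il5ra lost the call without any 1 of the 6 libraries (adjusted p 0.058 to 0.118). Stat5b lost the call without any 1 library other than untreated library 1 (adjusted p 0.075 to 0.236). With that trend removed Csf2ra rose by 1.98. The call of Il5ra was also lost without the 2 libraries that stand apart (adjusted p 0.0632), and that of Stat5b with the length and GC trend removed (adjusted p 0.0733), with DESeq2 size factors or with every gene tested.

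STAT5-responsive genes rose as a group. Of 15 tested members 10 rose and 0 fell, against 5.95% and 9.6% of all genes, and the list's median was 1.08 against -0.03. The counts were the same with the block and without the 2 libraries that stand apart, and with the length and GC trend removed 11 rose and 0 fell, with a median of 1.55 and Pim3 among them (0.67). Cish, which binds the activated receptor and damps STAT5 signalling (chr9:107296659-107302784), had 10.1, 6.52 and 5.32 CPM in untreated libraries 1, 2 and 3 and 153, 106 and 101 CPM at day 2. Its log2 fold change was 4.03 ± 0.31 (adjusted p = 0.000166), and every day 2 library was far above every untreated one. Pim1, a kinase that promotes survival (chr17:29490785-29496111), rose from 55.6, 44.8 and 48.4 to 484, 407 and 371 CPM (3.08 ± 0.21, adjusted p = 0.000145). Without the 2 libraries that stand apart the log2 fold changes were 4.43 and 3.25 (adjusted p = 1.17e-05 for each).

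Il2ra, the alpha chain of the IL-2 receptor, rose from 0.150, 0.262 and 0 to 2.03, 1.42 and 1.10 CPM (3.23 ± 0.59, adjusted p = 0.00767). Osm, the cytokine oncostatin M, rose from 13.1, 9.90 and 7.75 to 30.9, 22.8 and 20.4 CPM (1.27 ± 0.27, adjusted p = 0.0167). The other 6 that rose were the feedback inhibitors Socs1 (2.43) and Socs3 (1.08), the kinase Pim2 (1.15), Id1 (1.59), the survival gene Bcl2l1 (0.99) and the cyclin gene Ccnd2 (0.85). Socs2, another feedback inhibitor, had 73.8, 47.3 and 41.6 CPM untreated and 38.0, 42.5 and 62.6 CPM at day 2 (-0.19 ± 0.28, adjusted p = 0.68), with overlapping groups. Myc, Mcl1, Pim3 and Ccnd3 had log2 fold changes of 0.10, 0.40, 0.24 and -0.29 and did not pass. Osm and Id1 lost the call without untreated library 2 or day 2 library 2 (adjusted p 0.0503 to 0.0843). Socs1 and Bcl2l1 lost the call without untreated library 2, untreated library 3, day 2 library 1 or day 2 library 2 (adjusted p 0.0627 to 0.134). Socs3 lost the call without untreated library 2, untreated library 3, day 2 library 2 or day 2 library 3 (adjusted p 0.0628 to 0.122). Pim2 lost the call without any 1 library other than untreated library 1 (adjusted p 0.0614 to 0.149). Ccnd2 lost the call without untreated library 2, day 2 library 2 or day 2 library 3 (adjusted p 0.0577 to 0.145). Without the 2 libraries that stand apart Socs1 rose by 3.86 and Id1 by 2.18, and with the trend removed Socs3 rose by 1.97 and Pim2 by 1.79. With upper-quartile factors Socs1, Pim2 and Bcl2l1 also missed the threshold (adjusted p 0.055, 0.0586 and 0.0576), as did Socs1 and Bcl2l1 with library size alone.

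**Figure D3:**
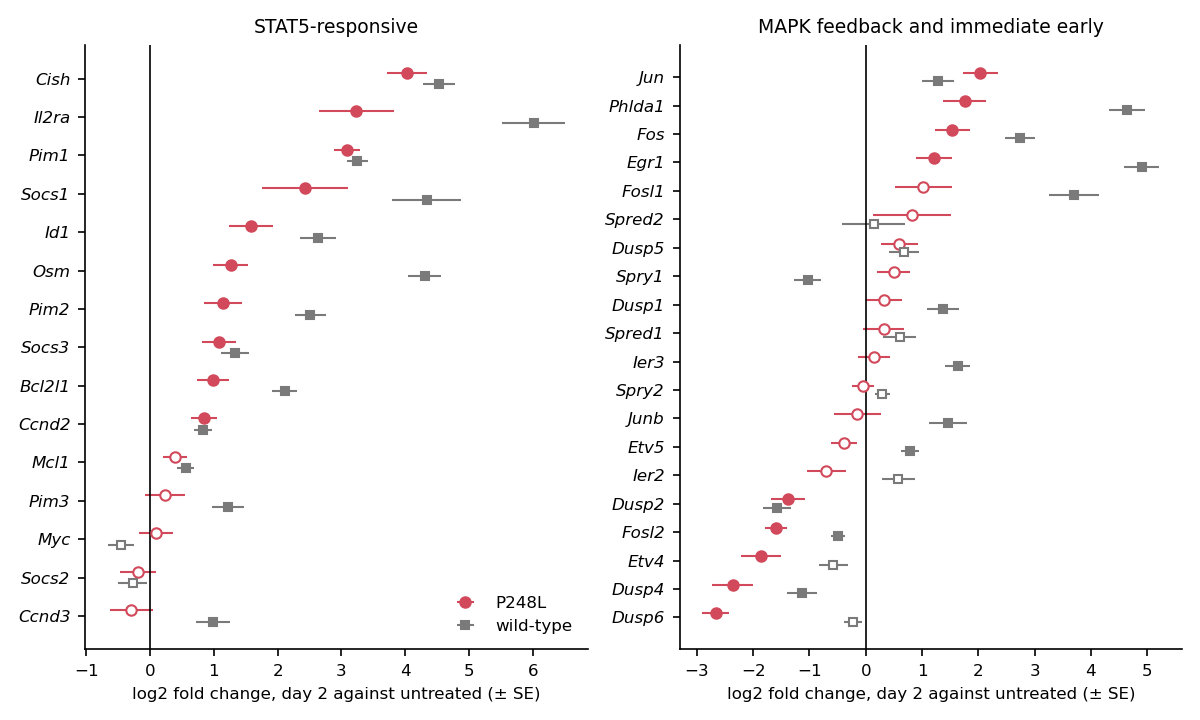
Log2 fold change of day 2 against untreated with its SE for the tested members of the STAT5-responsive list (left) and the MAPK list (right); red circles are P248L (fit of 6 libraries), grey squares wild-type (fit of 12), and filled symbols passed an adjusted p under 0.05. Cish and Pim1 lie at 4.03 and 3.08 in P248L, and Dusp6 is the lowest MAPK member in P248L at -2.67.

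MAPK feedback and immediate early genes moved in both directions. Of 20 tested members 4 rose and 5 fell, the median was 0.23, and with the block it was 5 and 6 (4 and 5 without the 2 libraries that stand apart). Shares of all genes were 5.95% and 9.6%, and 32.6% in either direction with the block. Dusp6, the phosphatase that turns off ERK and is itself induced by ERK activity (chr10:99263231-99267489), had 104, 82.2 and 89.6 CPM untreated and 12.3, 12.6 and 18.6 CPM at day 2. It fell by 2.67 on the log2 scale (SE 0.234, adjusted p = 0.000262), with the 3 day 2 libraries well below the 3 untreated ones. Dusp4, a related phosphatase, fell from 7.28, 16.2 and 17.997 to 2.85, 2.65 and 2.50 CPM (-2.37 ± 0.37, adjusted p = 0.00371). Fosl2, a Fos family factor, fell from 37.0, 42.9 and 46.0 to 13.2, 13.5 and 14.9996 CPM (-1.59 ± 0.20, adjusted p = 0.00135). Dusp2 (-1.38) and the ETS factor Etv4 (-1.86) also fell. The immediate early factor Jun went the other way, from 1.61, 2.92 and 2.63 to 10.6, 7.70 and 11.1 CPM (2.04 ± 0.31, adjusted p = 0.00317). Fos (1.54 ± 0.31, adjusted p = 0.0121), Phlda1 (1.76 ± 0.39, adjusted p = 0.0181) and Egr1 (1.22 ± 0.32, adjusted p = 0.0346) rose from low levels. Etv4 changed by -1.23 once the length and GC trend was removed. Dusp2 lost the call without untreated library 2 or day 2 library 2 (adjusted p 0.0641 to 0.0643). Phlda1 lost the call without untreated library 2, day 2 library 2 or day 2 library 3 (adjusted p 0.0547 to 0.0938). Egr1 lost the call without any 1 library other than day 2 library 2 (adjusted p 0.0566 to 0.131). Egr1 also lost it with no scaling beyond library size and without the 2 libraries that stand apart (adjusted p = 0.051).

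More progenitor genes fell than rose. Of 18 tested members of the stem and progenitor list 9 fell and 2 rose, the median was -0.85, and 12 fell both with the block and without the 2 libraries that stand apart. Over all genes 9.6% fell and 5.95% rose, and 18.2% fell with the block and 13.7% without those 2 libraries. Kit, the SCF receptor (chr5:75574987-75656722), had 228, 335 and 353 CPM untreated and 101, 116 and 108 CPM at day 2 (-1.49 ± 0.22, adjusted p = 0.00299). Its day 2 libraries were close to one another and below every untreated library. Hlf, a factor of stem cells, fell from 112, 161 and 182 to 10.6, 12.3 and 14.3 CPM (-3.61 ± 0.26, adjusted p = 0.00015). Sox4 (-3.24), Meis1, the partner of Hoxa9 (-1.27), Lmo2 (-1.01) and Cd34 (-0.97) fell beside Flt3, Hoxa9 and Angpt1. Prom1, which encodes the surface marker CD133, had 0 reads in all 3 untreated libraries and 4.26, 5.11 and 3.82 CPM at day 2, at least 107-fold higher against a floor of 3 counts over the group. Runx1, a factor of blood development, rose from 28.5, 29.4 and 31.7 to 71.5, 59.4 and 65.6 CPM (1.13 ± 0.18, adjusted p = 0.00443). Hoxb8 had 0 reads in all 6 libraries, which allows up to 0.0983 to 0.221 CPM at 3 counts per library. Counting intervals and floors cover counting error only. Lmo2 and Cd34 lost the call without untreated library 2 or day 2 library 2 (adjusted p 0.0594 to 0.0816).

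Granule genes of the neutrophil series rose in part. Among 10 primary granule genes 4 rose and 1 fell (6 and 1 without the 2 libraries that stand apart), with a median of 0.67. All genes gave 5.95% and 9.6%, or 9.96% and 13.7% without those 2 libraries. Elane, neutrophil elastase (chr10:79886312-79888216), rose from 4.50, 1.90 and 1.92 to 48.8, 34.5 and 16.1 CPM (3.57 ± 0.50, adjusted p = 0.00234), with day 2 library 3 the lowest of its group and still above every untreated library. Mpo, myeloperoxidase, had 7549, 6314 and 5074 CPM untreated and 8295, 6374 and 3933 CPM at day 2 (-0.02 ± 0.32, adjusted p = 0.97), and its groups overlapped. Ms4a3, a marker of granulocyte and monocyte progenitors, rose (1.08 ± 0.22, adjusted p = 0.0121), as did the protease inhibitor Serpinb1a (0.77 ± 0.19, adjusted p = 0.0283) and Nkg7 (2.45 ± 0.54, adjusted p = 0.0185). Ctsg, cathepsin G, fell from 1501, 1045 and 903 to 732, 528 and 451 CPM (-1.01 ± 0.27, adjusted p = 0.0406). Ms4a3 lost the call without untreated library 2 or day 2 library 2 (adjusted p 0.058 to 0.0894). Nkg7 lost the call without untreated library 2, day 2 library 1 or day 2 library 2 (adjusted p 0.0543 to 0.0827). Serpinb1a lost the call without untreated library 2, untreated library 3, day 2 library 2 or day 2 library 3 (adjusted p 0.0551 to 0.134). Ctsg lost the call without untreated library 1, untreated library 2, day 2 library 2 or day 2 library 3 (adjusted p 0.0648 to 0.157). Elane and Nkg7 rose by 4.44 and 3.43 on the log2 scale without the 2 libraries that stand apart. For Elane that leaves out the highest untreated value (4.50 CPM) and the lowest day 2 value (16.1 CPM).

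Of 20 late neutrophil and secondary granule genes 9 had reads enough for the test. Among these 6 rose and 0 fell, against 5.95% and 9.6% of all genes, or 7 and 0 without the 2 libraries that stand apart. Their median of 2.72 covers only genes that passed the filter on low counts. S100a8 and S100a9, the 2 chains of calprotectin, rose from 0.788, 2.03 and 0.769 to 44.8, 65.1 and 32.6 CPM (5.26 ± 0.48) and from 0.938, 2.36 and 0.576 to 48.9, 67.4 and 34.6 CPM (5.22 ± 0.52). Lcn2, the iron-sequestering protein lipocalin 2, rose from 3.12, 2.03 and 1.86 to 42.1, 33.4 and 23.7 CPM (3.81 ± 0.33, adjusted p = 0.000249). Cebpe, the factor needed for secondary granules, rose from 11.7, 5.97 and 5.89 to 94.7, 67.1 and 47.2 CPM (3.15 ± 0.37, adjusted p = 0.00103). The collagenase Mmp8 (2.72) and the lysozyme gene Lyz2 (1.46) rose as well, Lyz2 from 29.8, 39.2 and 26.5 to 109.6, 83.2 and 69.0 CPM. Cebpe rose by 3.77 without the 2 libraries that stand apart. Ngp, a secondary granule protein, stayed under the filter, at 0.113, 0.229 and 0.0640 CPM and then 2.03, 1.29 and 0.221 CPM. In bulk RNA more cells of a type and more RNA per cell cannot be told apart. 

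Monocyte genes split, with 4 of 14 that rose and 4 that fell (median -0.02), or 5 and 6 without the 2 libraries that stand apart. The shares over all genes were 5.95% and 9.6%, or 9.96% and 13.7% without those 2 libraries. Ccr2, the chemokine receptor of inflammatory monocytes, fell from 1108, 1299 and 1563 to 78.2, 107 and 205 CPM (-3.35 ± 0.38, adjusted p = 0.000799). Its change was -3.95 without the 2 libraries that stand apart. F13a1, a coagulation factor subunit made by monocytes, fell from 177, 251 and 244 to 18.3, 24.5 and 26.2 CPM (-3.28 ± 0.24, adjusted p = 0.000152). Ms4a6c (-1.17 ± 0.24, adjusted p = 0.0126) and Irf8, the factor of the monocyte and dendritic cell lineage (-0.85 ± 0.22, adjusted p = 0.0322), fell less. Fcgr1, the high-affinity IgG receptor, rose from 19.3, 16.2 and 14.1 to 65.5, 58.4 and 80.2 CPM (2.04 ± 0.22, adjusted p = 0.000647). Mrc1, the mannose receptor (2.82), Cd68 (1.21) and Csf1r, the M-CSF receptor (0.91), also rose. Ms4a6c lost the call without untreated library 2 or day 2 library 2 (adjusted p 0.0571 to 0.0819). Irf8 lost the call without untreated library 2, day 2 library 1 or day 2 library 2 (adjusted p 0.0783 to 0.16). Cd68 lost the call without untreated library 2 (adjusted p 0.0632). Csf1r lost the call without any 1 library other than untreated library 1 (adjusted p 0.0515 to 0.129). Irf8 also lost it with the length and GC trend removed (log2 fold change -0.290, adjusted p = 0.573).

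Mast cell and basophil genes split too, with 2 of 10 that rose and 5 that fell (median -0.17), and the same counts without the 2 libraries that stand apart. Among all genes 5.95% rose and 9.6% fell. Mcpt8, a basophil protease, fell from 54.0, 35.7 and 23.5 to 9.35, 7.39 and 8.09 CPM (-2.19 ± 0.32, adjusted p = 0.00271). Cpa3, the mast cell carboxypeptidase, fell from 468, 554 and 509 to 252, 255 and 255 CPM (-1.01 ± 0.18, adjusted p = 0.00702), and the mast cell protease Cma1 (-2.60), the histamine-making enzyme Hdc (-1.18) and the prostaglandin synthase Hpgds (-1.03) fell too. Alox5, which makes leukotrienes, rose from 6.57, 10.7 and 10.6 to 113, 107 and 74.9 CPM (3.41 ± 0.29, adjusted p = 0.000225). Cyp11a1, a steroid-making enzyme, rose from 3.64, 3.31 and 3.78 to 60.7, 39.4 and 30.3 CPM (3.61 ± 0.31, adjusted p = 0.000243). Cpa3, Hdc and Hpgds lost the call without untreated library 2 or day 2 library 2 (adjusted p 0.0579 to 0.0965). Cma1 lost the call without day 2 library 2 (adjusted p 0.0543).

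Markers of eosinophils, erythroid, dendritic and lymphoid cells were low. The summed level was at most 3.64 CPM per library for 8 eosinophil genes, 1.54 CPM for 11 erythroid genes, 5.19 CPM for 13 dendritic cell and class II genes and 3.30 CPM for 15 lymphoid genes. It was 15.4 to 31.9 CPM for 9 megakaryocyte genes and 249 to 658 CPM for 12 hepatocyte, stromal and endothelial genes, most of it from the transferrin gene Trf and the adhesion gene Pecam1. Rag2, a recombinase subunit of lymphocytes, had 1.31, 1.67 and 0.705 CPM untreated and 0 reads in all 3 day 2 libraries, at least 24.0-fold lower against a floor of 3 counts over the group. Trf fell from 444, 544 and 462 to 192, 178 and 181 CPM (-1.40 ± 0.18, adjusted p = 0.00168). Of the 4 tested genes of its list 1 rose, the smooth muscle actin gene Acta2, from 1.13, 0.557 and 0.256 to 5.58, 3.32 and 1.84 CPM (2.42 ± 0.55, adjusted p = 0.0202). Its change was 3.32 without the 2 libraries that stand apart. Acta2 lost the call without untreated library 2, day 2 library 1 or day 2 library 2 (adjusted p 0.0509 to 0.0816). Of 2 tested dendritic cell and class II genes the integrin gene Itgax fell (-1.96 ± 0.26, adjusted p = 0.00181) and the invariant chain gene Cd74 rose, from 0.488, 0.459 and 0.448 to 1.86, 2.03 and 1.91 CPM (2.04 ± 0.29, adjusted p = 0.00253). 

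More interferon response genes fell than rose. Of 14 tested, 8 fell and 0 rose, with a median of -1.23 against -0.03 for all genes, and with the block 12 fell and 1 rose. The share of all genes that fell was 9.6%, or 18.2% with the block. Without the 2 libraries that stand apart 11 fell and 0 rose, where 13.7% of all genes fell. Rtp4 fell from 3.003, 3.31 and 2.63 to 0.207, 0.0616 and 0 CPM (-4.72 ± 0.55, adjusted p = 0.000928) and Gbp2, a GTPase, from 1.501, 1.47 and 0.961 to 0.207, 0.123 and 0.0735 CPM (-3.14 ± 0.45, adjusted p = 0.00253). Irf9, part of the factor that binds interferon response elements, fell from 17.8, 22.5 and 20.5 to 6.202, 5.97 and 6.84 CPM (-1.68 ± 0.22, adjusted p = 0.00154). Irgm1, another GTPase, fell from 50.7, 56.5 and 50.2 to 18.6, 23.3 and 26.6 CPM (-1.201 ± 0.21, adjusted p = 0.00624). The factors Irf7 (-2.78) and Irf1 (-1.30), the RNA sensor gene Ddx58 (-1.70) and Gbp3 (-1.26) completed the 8. The remaining 11 members of the list, such as Isg15 and Mx1, did not pass the filter on low counts. Rtp4 and Gbp2, at most 0.207 CPM at day 2, passed it only through the untreated group. Their falls are thus no separate support. Ddx58 lost the call without untreated library 2 or day 2 library 2 (adjusted p 0.0609 to 0.0682). Gbp3 lost the call without untreated library 1, untreated library 2, day 2 library 1 or day 2 library 2 (adjusted p 0.0739 to 0.127).

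Chemokine and inflammatory genes split, with 3 of 9 tested that rose and 2 that fell (median 0.40), against 5.95% and 9.6% of all genes. Counts were the same without the 2 libraries that stand apart. Ccl9, a chemokine of myeloid cells, fell from 986, 764 and 702 to 194, 178 and 237 CPM (-2.01 ± 0.22, adjusted p = 0.000714), while Ccl6, another chemokine, rose from 1.16, 2.20 and 0.320 to 28.4, 17.4 and 18.3 CPM (4.05 ± 0.54, adjusted p = 0.00171). Ptgs2, cyclooxygenase 2, rose from 1.05, 2.20 and 1.92 to 5.66, 7.20 and 10.2 CPM (2.15 ± 0.36, adjusted p = 0.00561). Il1rn, the IL-1 receptor antagonist, rose (1.70 ± 0.41, adjusted p = 0.0252) and Ccl4 fell (-1.34 ± 0.32, adjusted p = 0.026). Il1rn lost the call without untreated library 1, untreated library 2, day 2 library 2 or day 2 library 3 (adjusted p 0.0542 to 0.114). Ccl4 lost the call without untreated library 2, day 2 library 2 or day 2 library 3 (adjusted p 0.08 to 0.12). Il1rn also lost it without the 2 libraries that stand apart (adjusted p = 0.0612).

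Stress genes rose in part: 6 of 19 amino acid and unfolded protein stress genes rose and 0 fell (median 0.47), and 10 and 0 without the 2 libraries that stand apart. For these and the p53 and BCL2 genes below, the shares of all genes were 5.95% and 9.6%. Without those 2 libraries they were 9.96% and 13.7%. Xbp1, the factor of the unfolded protein response, rose from 153, 117 and 112 to 586, 554 and 563 CPM (2.16 ± 0.20, adjusted p = 0.000327). Slc7a11, the cystine transporter, rose from 13.02, 20.7 and 28.4 to 87.2, 132 and 137 CPM (2.52 ± 0.32, adjusted p = 0.00148). Mthfd2, of mitochondrial folate metabolism (1.21 ± 0.17, adjusted p = 0.00248), Trib3 (1.68 ± 0.29, adjusted p = 0.00624), the amino acid transporter Slc7a5 (1.26) and the chaperone Hspa5 (0.85) were the others. Of 9 p53 targets 4 rose and 1 fell (median 0.69; 6 and 1 without the 2 libraries that stand apart). The growth arrest gene Gadd45a rose from 11.3, 6.36 and 6.08 to 29.8, 21.8 and 32.1 CPM (1.81 ± 0.30, adjusted p = 0.00536), Ccng1 by 1.06 ± 0.23 and the cell cycle inhibitor Cdkn1a by 1.19 ± 0.26, while Sesn1 fell (-1.0001 ± 0.21). The death receptor Fas had 0 reads untreated and 0.703, 0.985 and 0.735 CPM at day 2, at least 19.3-fold higher against the floor. It passed the filter only through the day 2 group. In the BCL2 family 4 of 14 rose and 1 fell (median 0.13), or 4 and 4 with the block, where 18.2% of all genes fell. Bcl2a1a, Bcl2a1b and Bcl2a1d, near-identical survival genes whose reads cannot be assigned with certainty, went from at most 0.0751 CPM untreated to 2.61, 3.88 and 3.82, to 4.34, 4.00 and 12.3 and to 0.620, 0.923 and 2.72 CPM. These genes were among the 4 rises, passed the filter only through the day 2 group and are not separate observations. The pro-death gene Bmf fell (-2.14 ± 0.51, adjusted p = 0.0246). Bmf changed by -3.02 without the 2 libraries that stand apart, and with the trend removed that of Gadd45a was 2.44. Slc7a5 lost the call without day 2 library 2 (adjusted p 0.0604). Hspa5 lost the call without any 1 library other than day 2 library 1 (adjusted p 0.0601 to 0.189). Ccng1, Cdkn1a and Sesn1 lost the call without untreated library 2 or day 2 library 2 (adjusted p 0.0584 to 0.1). Bmf lost the call without untreated library 2, day 2 library 1 or day 2 library 2 (adjusted p 0.0675 to 0.0998).

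Cell cycle and growth genes were taken by list, against 5.95% that rose and 9.6% that fell among all genes. Of 18 G1/S genes 3 rose and 0 fell (median -0.08): the cyclin genes Ccne1 (1.17 ± 0.20, adjusted p = 0.00562) and Ccne2 (1.198 ± 0.26, adjusted p = 0.0165) and Rrm2, of nucleotide synthesis (0.81 ± 0.18, adjusted p = 0.0205). Of 15 G2/M genes Tpx2, a spindle protein, rose (0.78 ± 0.21, adjusted p = 0.0415), and with the block 7 rose and 1 fell. All 18 ribosome biogenesis genes had a fitted rise, against 48.0% of all tested genes, with a median of 0.54. Genes of the same libraries are not independent, so this is a description. Only 3 passed, Nop56, Nop2 and Nop14 (adjusted p of 0.0362, 0.043 and 0.0441). With the block 8 passed, and without the 2 libraries that stand apart 9. Ccne2 lost the call without untreated library 2 (adjusted p 0.0759). Rrm2 lost the call without untreated library 2 or day 2 library 2 (adjusted p 0.111 to 0.121). Tpx2 lost the call without any 1 library other than untreated library 3 (adjusted p 0.0519 to 0.173). Nop56 and Nop14 lost the call without any 1 of the 6 libraries (adjusted p 0.0511 to 0.206). Nop2 lost the call without any 1 library other than day 2 library 3 (adjusted p 0.0592 to 0.166). Tpx2, Nop56, Nop2 and Nop14 also lost it with upper-quartile factors and with library size alone, Tpx2 without the 2 libraries that stand apart, and Nop2 and Nop14 with every gene tested. Cytosolic ribosomal protein genes had a median of -0.61 and 0 of 20 passed (edgeR, adjusted p); 9 fell with the block, 1 rose and 0 fell without the 2 libraries that stand apart, where the median was -0.23. Their summed level was 35603, 24072 and 19072 CPM in untreated libraries 1, 2 and 3 and 20845, 17887 and 17107 CPM at day 2, highest in untreated library 1 and with overlapping groups. Of 19 genes of cholesterol synthesis and uptake 0 passed in either direction (1 rose and 1 fell with the block). In glycolysis and hypoxia 1 of 13 rose, the hexokinase gene Hk2 (0.79 ± 0.17), and 1 fell, the growth factor gene Vegfa (-1.002 ± 0.22). Of 16 lysosome genes 4 fell and 1 rose (median -0.41; 7 and 2 with the block), with Hexa from 314, 252 and 211 to 139.7, 107 and 94.5 CPM (-1.18 ± 0.23, adjusted p = 0.0109). Of 18 oxidative phosphorylation genes Ndufa4 fell (-1.26 ± 0.29, adjusted p = 0.0229). Hk2 and Vegfa lost the call without untreated library 2 or day 2 library 2 (adjusted p 0.0893 to 0.12). Hexa lost the call without day 2 library 2 (adjusted p 0.065). Ndufa4 lost the call without untreated library 2, day 2 library 2 or day 2 library 3 (adjusted p 0.0541 to 0.0795). With the length and GC trend removed Vegfa, Bmf and Lmo2 did not pass (adjusted p 0.0833, 0.101 and 0.0791). Hspa5 missed the threshold with upper-quartile factors (adjusted p 0.0651), a stricter filter or both strands counted, and Csf1r with library size alone (adjusted p 0.0597).

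**Figure D4:**
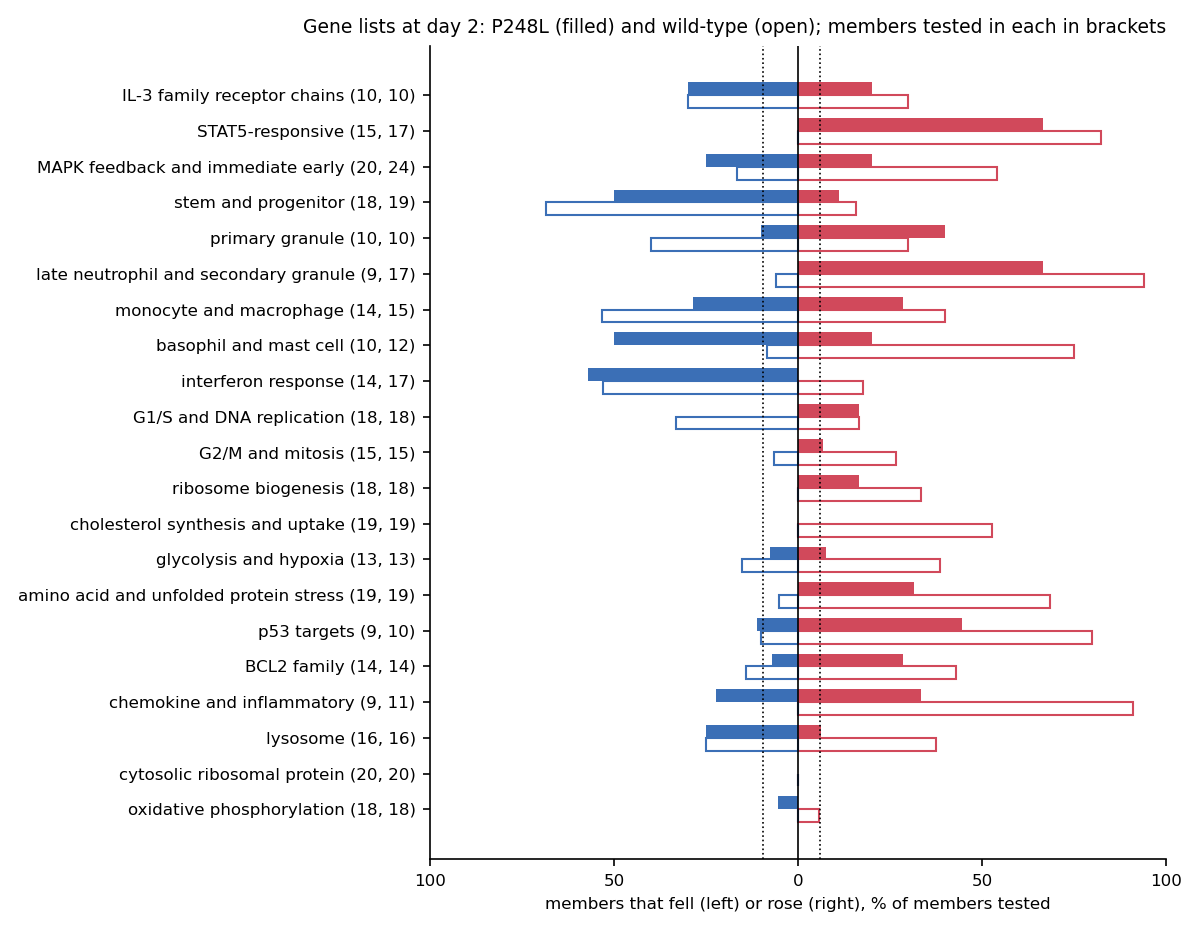
Share of tested members of each gene list that fell (left, blue) or rose (right, red) at day 2, for lists with at least 5 tested members; filled bars are P248L, open bars wild-type, and brackets hold the members tested in each. Dotted lines mark the shares of all genes tested in P248L, 9.6% fell and 5.95% rose; the STAT5-responsive and late neutrophil lists reach furthest right in P248L and the interferon list furthest left.

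The P248L response was set against the wild-type response in 1 fit of 12 libraries. Of 11278 genes tested, 2141 rose (19%) and 2200 fell (19.5%) in the wild-type line, whose replicates were closer. In the same fit 1776 rose and 2115 fell in P248L, 34.5% in either direction against 38.5% in wild-type. The 1657 genes of the fit of 6 libraries are thus not to be set beside the wild-type count. The difference of the 2 responses, P248L minus wild-type, passed for 727 genes, with 180 higher (1.6%) and 547 lower (4.85%) in P248L. Among the 727 the fitted values had the same sign with the P248L fold smaller for 341 and larger for 74, and opposite signs for 312. Signs were taken whether or not the change passed, so a gene nearly flat in 1 line can count as opposite. Over all genes of this fit, 3891 passed in P248L and 4341 in wild-type. Of these 2398 passed in both lines with the same sign and 98 with opposite signs. The median size of the log2 fold change over the 727 was 0.87 in P248L and 1.62 in wild-type. Without P248L untreated library 2 the count was 469, and without the 2 libraries that stand apart it was 1131.

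**Figure D5:**
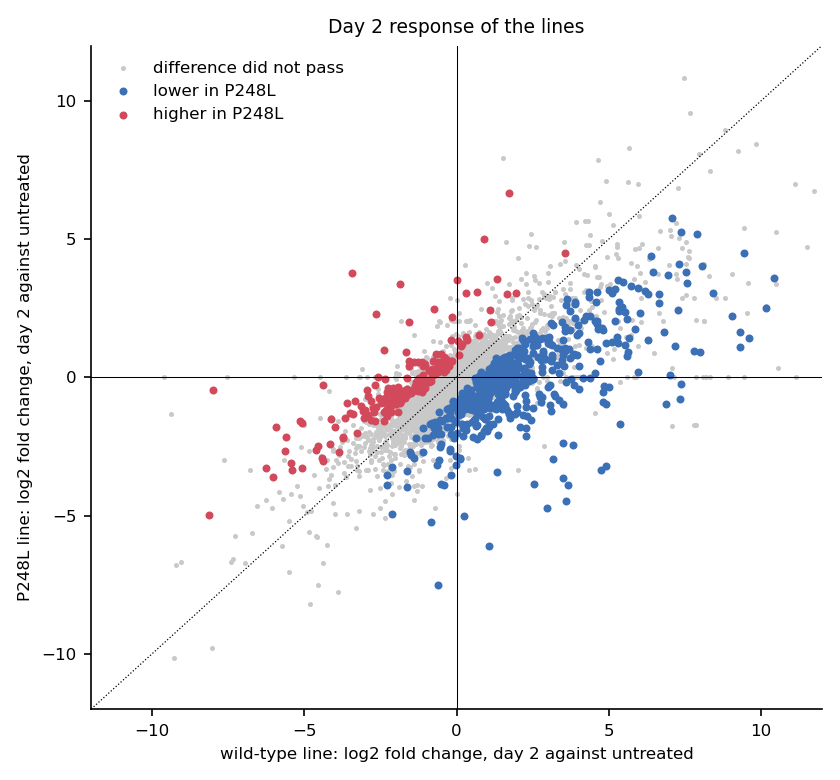
Log2 fold change of day 2 against untreated in the P248L line (vertical) and the wild-type line (horizontal) for 11278 genes; blue points are the 547 genes with a lower response in P248L, red points the 180 with a higher one, and the dotted line marks equal responses. Points between the horizontal zero line and the dotted line on the right are genes that rose in both lines, and more in the wild-type line.

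Cish and Pim1 had no detectable difference between the lines. Cish rose by 4.53 ± 0.25 in wild-type and the difference was -0.51 ± 0.31 (adjusted p = 0.393), and for Pim1 it was -0.16 ± 0.21 (adjusted p = 0.698). With their SE these values do not show equal responses. Within the STAT5-responsive list 0 of 17 were higher and 3 lower in P248L, against 1.6% and 4.85% of all genes. The 3 were Osm (difference -3.04 ± 0.33, adjusted p = 0.000132), Pim2 (-1.37) and Bcl2l1 (-1.12). Osm was at 24.7 ± 5.53 CPM (mean ± SD, n = 3) at day 2 in P248L and 48.3 ± 5.00 CPM in wild-type, from 10.3 ± 2.71 and 2.44 ± 0.527 CPM. In the wild-type line 14 of 17 members of the list rose in the fit of 12 libraries. The difference did not pass for Pim2 with the length and GC trend removed (adjusted p 0.0625) or for Bcl2l1 with library size alone (adjusted p 0.0562). Pim2 lost the call of the difference without wild-type untreated library 1, wild-type untreated library 2, wild-type untreated library 3, wild-type day 2 library 2, wild-type day 2 library 3, day 2 library 2 or day 2 library 3 (adjusted p 0.0524 to 0.0822). Bcl2l1 lost the call of the difference without wild-type untreated library 1, wild-type untreated library 3, wild-type day 2 library 2, wild-type day 2 library 3, untreated library 2 or day 2 library 2 (adjusted p 0.0539 to 0.0704).

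Csf2rb rose in wild-type from 83.4 ± 7.68 to 271 ± 50.7 CPM (1.71 ± 0.17), and the difference of -1.46 ± 0.24 passed (adjusted p = 0.00259). For Csf2rb2 the wild-type change was 1.74 ± 0.14 and the difference -1.62 ± 0.20 (adjusted p = 0.000332). The response of both was thus smaller in P248L. Of the 24 MAPK genes tested in the 12 libraries 13 rose in wild-type, against 19% of all genes. Responses were lower in P248L for 8 and higher for 1, against 4.85% and 1.6% of all genes. Dusp6 had 116 ± 4.06 and 98.1 ± 5.72 CPM in wild-type (-0.23 ± 0.16, adjusted p = 0.28), so its fall in P248L differed (difference -2.44 ± 0.23, adjusted p = 5.89e-05). Egr1 rose by 4.90 ± 0.31 in wild-type, 3.68 more on the log2 scale than in P248L (adjusted p = 0.000166).

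Among 19 stem and progenitor genes the response was higher in P248L for 4 and lower for 3, against 1.6% and 4.85% of all genes. Kit fell from 353 ± 18.2 to 19.9 ± 5.56 CPM in wild-type (-4.14 ± 0.24; difference 2.64 ± 0.30, adjusted p = 0.000178). Flt3 fell from 133 ± 8.11 to 0.471 ± 0.279 CPM in wild-type, so that P248L kept a higher day 2 level, 4.00 ± 0.295 CPM (difference 3.13 ± 0.36, adjusted p = 0.000198). The stem cell transcription factor Hlf also fell less (difference 2.42 ± 0.29, adjusted p = 0.00024). Angpt1 fell further in P248L (difference -2.36 ± 0.35, adjusted p = 0.0012), from similar untreated means of 143 ± 51.7 and 203 ± 12.5 CPM. Hoxa9 changed by -6.72 ± 0.78 in wild-type, and the difference of 1.08 ± 0.98 did not pass (adjusted p = 0.566).

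Of 17 late neutrophil genes tested in the 12 libraries 16 rose in wild-type, against 19% of all genes. The response of 11 was lower and of 1 higher in P248L, against 4.85% and 1.6% of all genes. Only 9 passed the filter in the 6 P248L libraries alone. Members that entered only with the wild-type libraries were high there and low in P248L by selection. Their rise and lower response are thus no separate support. The same applies to such members of the other lists. Lcn2 reached 368 ± 60.9 CPM in wild-type and 33.0 ± 9.19 CPM in P248L at day 2 (difference -3.71 ± 0.36, adjusted p = 6.25e-05). Ngp was at 1935 ± 455 CPM in wild-type and 1.18 ± 0.908 CPM in P248L at day 2 (difference -5.39 ± 1.10, adjusted p = 0.0098), and it was at 1507 ± 349.6 CPM at day 5 in P248L. S100a9 was at 8577 ± 945 CPM in wild-type and 50.3 ± 16.4 CPM in P248L (difference -2.69 ± 0.52, adjusted p = 0.00693). Its day 2 level in P248L was near the untreated level of wild-type, 36.6 ± 7.89 CPM, and at day 5 it was at 17049.8 ± 3447 CPM. Mpo fell in wild-type from 7073 ± 504 to 2277 ± 321 CPM and the difference was 1.60 ± 0.35 (adjusted p = 0.0151). Ngp lost the call of the difference without untreated library 2 (adjusted p 0.171). Mpo lost the call of the difference without wild-type day 2 library 3 (adjusted p 0.05).

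Chemokine genes gave the highest share of lower responses among the lists with at least 5 tested members, with 10 of 11 lower in P248L and 0 higher, against 4.85% and 1.6% of all genes. In the 6 P248L libraries alone 9 passed the filter. Ccl9 had a log2 fold change of 0.00 ± 0.17 in wild-type and fell in P248L (difference -2.01 ± 0.24, adjusted p = 0.000221). Ccl6 reached 858 ± 90.5 CPM in wild-type and 21.4 ± 6.08 CPM in P248L (difference -4.04 ± 0.62, adjusted p = 0.00144). Cpa3 rose in wild-type (0.70 ± 0.15) and fell in P248L (difference -1.71 ± 0.22, adjusted p = 0.000413), and 5 of 12 mast cell and basophil genes were lower and 0 higher. Monocyte genes went the other way, with 6 of 15 higher and 1 lower in P248L. F13a1 fell to 5.85 ± 1.30 CPM in wild-type (difference 2.99 ± 0.28, adjusted p = 5.11e-05), while Fcgr1 rose more there (difference -2.51 ± 0.26, adjusted p = 0.000101). For the ribosome biogenesis, G1/S, G2/M, ribosomal protein and oxidative phosphorylation lists the difference passed for 0 genes.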

How the data were processed

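RNA of 18 libraries was measured by RNA sequencing, 3 in each of 6 groups (wild-type or P248L line, untreated, day 2 or day 5 of IL-3). The deposited files hold raw read counts per gene for 23329 genes. Reads were aligned to mm10 with STAR, per the submitters' processing notes. Version, counting tool and annotation: not given in the sources used here. Of the 2 stranded columns the one with nearly all gene reads was taken, leaving 1.17 to 2.54% on the opposite strand, and gave 13844612 to 27181962 reads per library. The 4 lines of each file that name no gene, 27.9 to 38.1% of a library, stayed out of library sizes and tests.

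Genes were filtered with filterByExpr (minimum count 10), scaled by TMM factors and tested with the quasi-likelihood test in edgeR 4.0.16 under R 4.3.3. P248L day 2 and untreated were fitted alone, since these groups spread more than the others. The difference of responses and the wild-type response came from a fit of 12 libraries. A gene rose or fell at a Benjamini-Hochberg adjusted p under 0.05 over all tested genes. Each SE was derived from the log2 fold change and its F statistic (size of the change divided by the root of F). Levels are CPM with TMM factors over all 18 libraries. Gene coordinates and promoters were from RefSeq (GRCm38.p6), and lengths and GC, from GENCODE M21 transcripts, matched 90.6% of tested genes.

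The comparison, its gene lists and the named genes were chosen with earlier results of these data known. Named by rule were the 12 largest rises and 12 largest falls past the threshold, with a group mean of at least 10 CPM and no overlap of libraries; 6 largest differences each way at 10 CPM or more; up to 4 members of smallest adjusted p per list with members that went against the list; and 15 genes of the receptor, signalling and lineage. Other list members were named after their values were seen. Genes with clone names only were passed over. In the P248L groups deviations of same-numbered libraries from their group means correlated at 0.503, 0.260 and 0.384, all over 0.1, so the numbers were taken to pair them. That rests on the data alone, since no label explains the numbers. Unlike-numbered P248L pairs gave -0.563 to 0.222, the highest for untreated library 3 with day 2 library 2. Deviations within a group of 3 sum to 0, so these values are not independent. The block was thus chosen from the same data that it was applied to. In wild-type the same-numbered correlations were 0.055, -0.086 and -0.270.

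Tested on simulated data of 10660 genes, the P248L comparison found 29% of 100 genes changed 2-fold and 89% of 100 changed 4-fold, and 8.53% of its calls were false. For the difference (11278 genes) it was 22%, 91% and 7.38%. Genes were drawn independently in 1 run, without the deviations shared across genes that these libraries show. The rates therefore need not hold for the real data. Alternatives were other fits and tests (limma 3.58.1, DESeq2 1.42.0), scalings, filters, strands, thresholds, the block, the length and GC trend, Rn45s left out and libraries left out. Plots were made in Python 3.11.15 with matplotlib 3.10.9. Mitochondrially encoded genes were not analysed here.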

Additional observations from a re-analysis of the deposited data

Results flagged for a closer look

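The day 2 response of 12 named genes differed between the lines by the test of the difference (P248L minus wild-type, log2 scale), and these values were not followed further. Among higher responses in P248L, Gpc3 differed by 4.11 (adjusted p = 0.049), with 0.354 ± 0.162 CPM untreated and 0 reads at day 2 in wild-type, against 30.4 ± 4.03 and 8.66 ± 0.909 CPM in P248L. Its call was lost under 17 of 27 alternatives. Nrg2 differed by 4.08 (adjusted p = 3.78e-05) and was at 12.7 ± 2.03 CPM untreated and 0.605 ± 0.112 CPM at day 2 in wild-type, against 0.845 ± 0.100 and 0.666 ± 0.131 CPM in P248L. Elavl2, an RNA-binding protein gene, differed by 3.56 (adjusted p = 0.000413) and rose in P248L from 5.99 ± 0.847 to 24.0 ± 5.88 CPM. S1pr3, a sphingosine 1-phosphate receptor gene, differed by 3.56 (adjusted p = 1.17e-05) and was at 10.97 ± 1.76 CPM in P248L at day 2, against 0.581 ± 0.105 CPM in wild-type. Rassf4 differed by 3.49 (adjusted p = 0.000139), from an untreated level of 0.286 ± 0.0814 CPM in P248L and 11.6 ± 2.53 CPM in wild-type, and Myl10 by 3.45 (adjusted p = 0.000217).

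Among lower responses, the neutrophil surface gene Cd177 differed by -8.19 (adjusted p = 1.75e-05), with 163 ± 32.5 CPM in wild-type and 0.522 ± 0.0949 CPM in P248L at day 2. Stfa3 and Stfa2, stefins of a multi-copy family whose reads cannot be assigned with certainty, differed by -8.18 and -7.64 (adjusted p = 0.00128 and 0.00431), and both calls were lost without P248L untreated library 2 (adjusted p = 0.119 and 0.402). The cell cycle inhibitor gene Cdkn2b differed by -8.11 (adjusted p = 0.000181), with 10.7 ± 2.25 CPM in wild-type and 0.0138 ± 0.0239 CPM in P248L. Lama5, a laminin chain gene, differed by -8.10 (adjusted p = 0.000686) and Sept5 by -7.08 (adjusted p = 0.0485), a call lost under 14 of 27 alternatives. These 6 genes had 1 to 29 reads over the 3 P248L day 2 libraries, so their fitted values depend on the prior count. None of them passed the filter in the P248L libraries alone, so they entered the test through the wild-type libraries.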

How the results depend on the processing

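The 1657 genes of the P248L comparison became 4775 with all 18 libraries in 1 fit, 6836 with library quality weights in limma-voom, 3479 with the replicate block, 2770 with the length and GC trend removed, 3351 with both, 661 at an adjusted p under 0.01, 404 against a 2-fold change (glmTreat) and 2543 without the 2 libraries that stand apart. Leaving out 1 library gave 696 to 1707. The 727 differences between the lines became 1140, 5288, 1262, 1210, 1287, 369, 217 and 1131 in the same order and 1107 with DESeq2, and leaving out 1 library gave 469 to 942. The replicate numbers did not pair the wild-type libraries, so the block on the difference (1262 genes) shares only a number there. The other alternatives stayed within 1.5 times of each count, DESeq2 with 2340 genes in the P248L comparison included. The cause of each shift was not tested, beyond fewer libraries or a stricter threshold.

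No gene of the text that passed changed direction under any alternative run. The share of rises among changed genes, 38.3%, was 27.8% with library size alone and 28.4% with upper-quartile factors, where the median of all genes moved from -0.03 to -0.14 and -0.15, and 47.1% with the trend removed and the block. The motif was in 9.434% of genes that rose with the 250 bases before the start alone. In the simulated data, which held no deviations shared across genes, many 2-fold changes were not detected.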
